A study of Homo sapiens with 8 samples.

Results

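The 9 genes described here, RLBP1, ATP10B, CA14, CHI3L2, NAV3, ITIH6, ZHX2, TECRL and RHOJ, were selected on measured values, for large falls against vehicle under OTX015, panobinostat or both drugs, from 22458 genes measured on 8 expression arrays. The cells were NCH644, a human glioblastoma line with stem-like properties that was grown as neurospheres. They received 5 µM OTX015, 5 µM panobinostat, 5 µM of each drug together, or DMSO, the vehicle, and RNA was taken after 24 h. Each of the 4 groups had 2 arrays, which the submitters call biological duplicates. How the duplicates were separated is not stated, so every spread and p-value below covers only the difference between these arrays, and their number limits the precision. The material is 1 cell line at 1 dose and 1 time, and in bulk RNA fewer cells expressing a gene and less RNA per cell cannot be told apart.

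OTX015 blocks the bromodomains with which BET proteins dock onto acetylated lysines of histones, and through which they help RNA polymerase pass into elongation. Panobinostat blocks histone deacetylases, the enzymes that take such acetyl groups away. Genes that depend strongly on enhancers, including many that mark cell identity, are known to be sensitive to loss of BET binding, and deacetylase inhibitors are known both to raise and to lower large sets of genes.

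In vehicle-treated neurospheres all 9 genes had clear signal, and in each of the 3 drug groups all 9 were lower, with no array of any drug group reaching the level of either DMSO array. For 7 of the genes, RLBP1, ATP10B, CA14, CHI3L2, NAV3, ITIH6 and ZHX2, either drug alone brought the measured signal down by more than 3 on the log2 scale. TECRL and RHOJ differed from these: OTX015 lowered them only in part, while panobinostat and the combination gave them the 2 deepest falls in measured signal of all 22458 genes. Ranks of falls here and below go by measured signal, and a fall that ends under the background described below is only a bound, so its rank is not exact. Because the genes were chosen on these 3 comparisons, the falls are a description and carry no test. The 3 comparisons also share the same DMSO arrays.

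Values are log2 levels after robust multi-array averaging (RMA), which puts the arrays on a common scale. Array medians lay between 3.87 and 4.0 and duplicates correlated across genes at r = 0.990 to 0.993. A level of 3.03 served as the background: 95% of the group averages of 352 genes for olfactory receptors, which brain tumour cells should lack, lay under it. Under this level lay 1 of the 9 genes with OTX015, 4 with panobinostat, 5 with both drugs and 0 with DMSO, against 38.6%, 37.2%, 36.9% and 38.3% of all genes in the same groups. Where a drug group averaged under the background, the fall is given as a lower bound of the fold. Means between this level and 3.84, the 99th percentile of the same averages, are also near background. Falls and differences between drugs that end there are of measured signal and may be understated. The labelled cell type was checked with its markers: 11 of 11 measured neural stem and glioma markers, among them SOX2, NES, OLIG2 and PTPRZ1, were above background in every group. CD44 lay just above it, at group means of 3.10 to 3.40. The summed linear signal of these markers was 6103 to 6210 with OTX015, 3479 to 3736 with panobinostat and 2967 to 3035 with both drugs, against 5466 to 5538 with DMSO. That sum joins moves in both directions. With both drugs the largest log2 falls were in PTPRZ1 (-5.06), OLIG1 (-3.81), FABP7 (-3.58), PROM1 (-3.36) and SOX2 (-3.29). Only VIM (1.53), SOX9 (1.48) and CD44 (0.12) were higher. The part of these shifts in the results below was not tested.

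**Figure D1:**
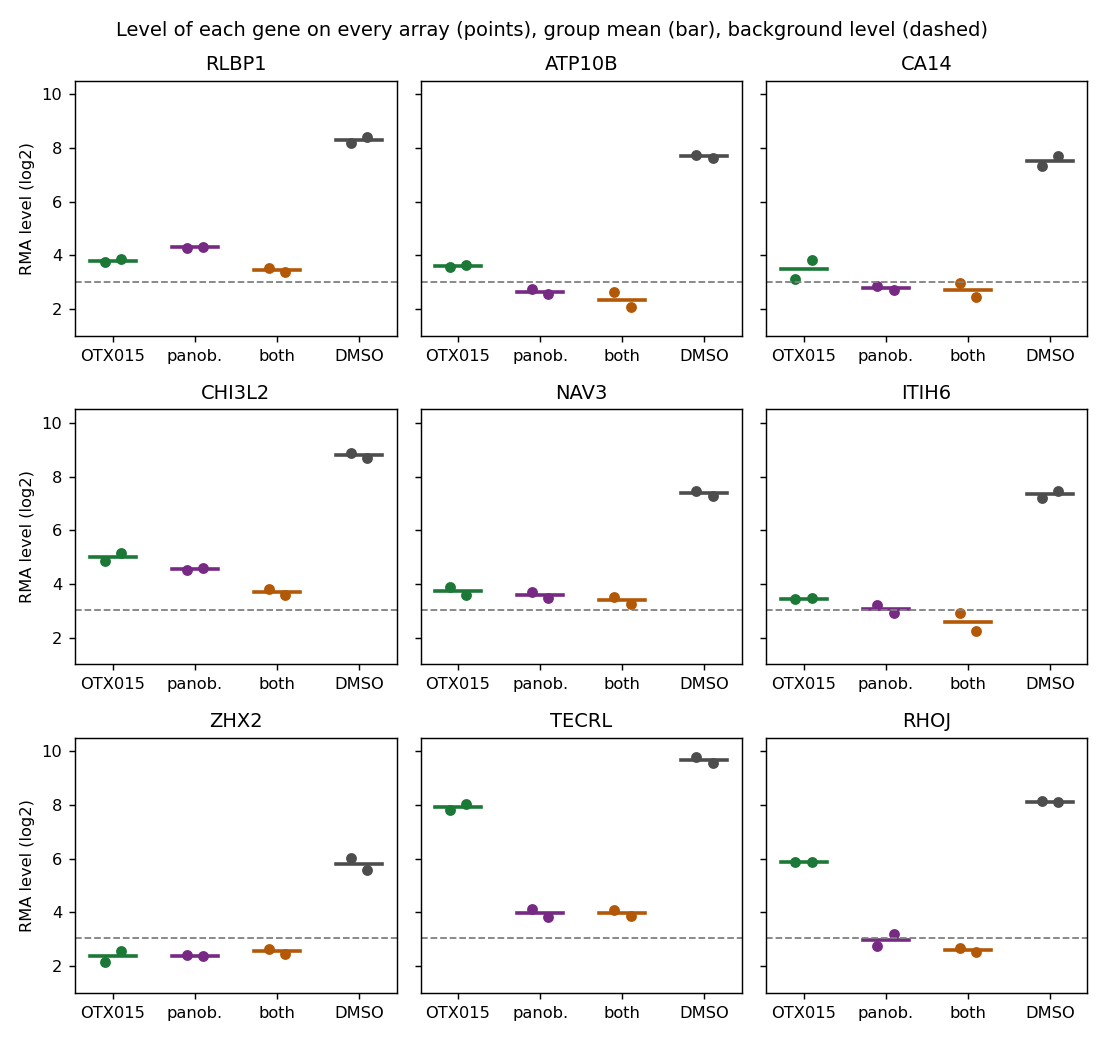
Log2 RMA level (vertical axis) of each of the 9 genes on every array (points), by treatment (horizontal axis; panob. is panobinostat, both is OTX015 with panobinostat), with the mean of 2 arrays as a bar and the background level of 3.03 as a dashed line. All DMSO arrays sit above all drug-treated arrays, and only TECRL and RHOJ keep an intermediate level with OTX015.

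The starts of these genes are shown first, because genes that move together can be compared there. This look at promoters was added after the values had been seen. RefSeq windows on build GRCh38.p14, which run from 250 bases before to 50 bases after the first listed start, were matched for 8 of the 9 genes, all but ZHX2. The 4 runs below are the 250 bases before the start, written 5′ to 3′ on the strand of the gene, with each CpG dinucleotide in capitals. TECRL and RHOJ are shown as the pair that OTX015 lowered only in part, and RLBP1 and CA14 as genes among the 3 with the deepest falls under OTX015.
TECRL (chr4:64409461-64409710, minus strand): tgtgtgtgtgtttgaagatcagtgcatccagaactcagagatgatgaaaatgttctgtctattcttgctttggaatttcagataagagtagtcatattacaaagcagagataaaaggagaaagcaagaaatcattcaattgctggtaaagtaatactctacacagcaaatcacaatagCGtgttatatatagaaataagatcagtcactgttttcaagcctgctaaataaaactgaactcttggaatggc
RHOJ (chr14:63204193-63204442, plus strand): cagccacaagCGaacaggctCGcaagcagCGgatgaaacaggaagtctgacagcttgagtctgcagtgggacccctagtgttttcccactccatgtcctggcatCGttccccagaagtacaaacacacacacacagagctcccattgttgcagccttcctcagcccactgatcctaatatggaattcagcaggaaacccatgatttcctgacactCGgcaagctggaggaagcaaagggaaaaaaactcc
RLBP1 (chr15:89221580-89221829, minus strand): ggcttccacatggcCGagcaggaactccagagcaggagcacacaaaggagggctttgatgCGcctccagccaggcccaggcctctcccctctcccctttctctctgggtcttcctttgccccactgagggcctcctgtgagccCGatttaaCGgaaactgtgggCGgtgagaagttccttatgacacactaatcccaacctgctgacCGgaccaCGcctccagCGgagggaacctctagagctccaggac
CA14 (chr1:150257524-150257773, plus strand): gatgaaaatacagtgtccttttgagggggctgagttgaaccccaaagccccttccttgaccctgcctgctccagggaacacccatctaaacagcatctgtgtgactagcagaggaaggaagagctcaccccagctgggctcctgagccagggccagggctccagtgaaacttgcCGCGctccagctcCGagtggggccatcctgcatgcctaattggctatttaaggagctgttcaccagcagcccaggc

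CpG dinucleotides were sparse at these starts. The 300-base window held 1 CpG in TECRL, 2 in NAV3 and ITIH6, 4 in CHI3L2, CA14 and ATP10B, 5 in RHOJ and 9 in RLBP1, a median of 4. The median over the windows of 27305 genes was 14, with quartiles of 3 and 28. TECRL, NAV3 and ITIH6 lay under the lower quartile, and the others of the 8 lay between it and the median. Among the 10709 genes above background in DMSO, the median was 26, with quartiles of 17 and 34, and 13.3% held 9 or fewer. TECRL, ATP10B, CHI3L2 and NAV3 have a second listed start, where the window held 1, 1, 3 and 7 CpG dinucleotides. These counts describe the reference sequence; no methylation was measured.

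Few short motifs were shared among the starts. The letters CAGCTG, an E-box core bound by neural basic helix-loop-helix factors, were found in 4 of 8 windows (CHI3L2, CA14, NAV3 and ITIH6), which is 50%, against 17.7% of all 27305 windows. ACAAAG, a core of the type that SOX factors bind, occurred in TECRL, ATP10B and RLBP1, or 37.5% of the 8 against 16.0% of all. ACAATG, a second SOX-type core, occurred in ATP10B and RHOJ, or 25% against 10.97%. The CCAAT box stood in CA14 alone (12.5% against 35.7%), and the GC box GGGCGG in RLBP1 alone (12.5% against 44.6%). The TATA box core TATAAA was in 0 of 8 against 11.95% of all windows, the E-box CACGTG of MYC and MAX in 0 of 8 against 7.43%, and the AP-1 site TGACTCA in 0 of 8 against 4.92%. Both strands were searched and no motif searched contains another. These counts use the first listed window of each gene. At the second listed starts, CHI3L2 and TECRL held the same motifs, NAV3 held CCAAT beside CAGCTG, and ATP10B held none of those searched. A match is a description of letters, and binding of a factor at these starts was not measured.

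**Figure D2:**
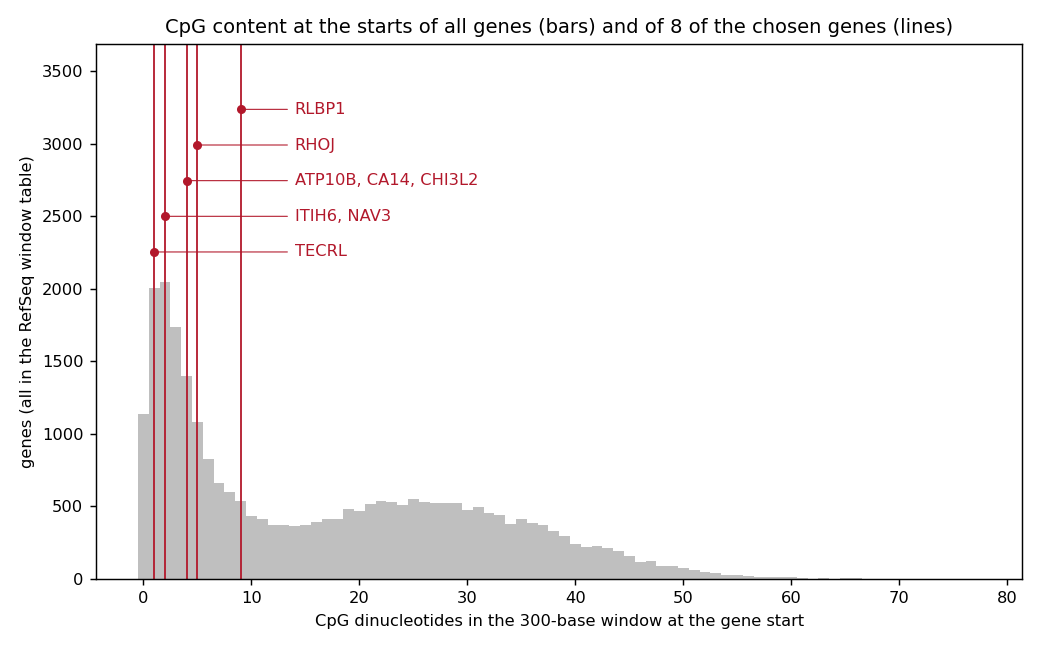
Number of CpG dinucleotides in the 300-base window at the gene start (horizontal axis) for all 27305 genes with a window (grey bars, number of genes on the vertical axis) and for 8 of the 9 chosen genes (red lines with names). The chosen genes lie between 1 and 9 CpG dinucleotides, left of the median of 14.

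RLBP1 encodes the retinaldehyde-binding protein CRALBP, which carries retinoid in the visual cycle and is made by Müller glia and pigment epithelium of the eye. Its level was 3.74 and 3.88 with OTX015, 4.28 and 4.32 with panobinostat and 3.53 and 3.39 with both drugs, against 8.20 and 8.42 with DMSO. The 4 groups did not overlap, and all drug arrays stayed above the background level. The means with OTX015 and with both drugs, 3.81 and 3.46, lay under 3.84, near background. RLBP1 had the deepest fall of all genes under OTX015, with a log2 difference from DMSO of -4.50 ± 0.14 (SE), or 22.6-fold. The log2 difference was -4.01 ± 0.14 with panobinostat, at rank 19 of the falls, and -4.85 ± 0.14 with both drugs, at rank 12. Leaving out ZHX2, whose order cannot be read, RLBP1 alone among the genes had a lower mean with OTX015 than with panobinostat.

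CHI3L2 encodes a secreted chitinase-like protein that binds chitin but does not cut it. Its level was 4.86 and 5.17 with OTX015, 4.52 and 4.60 with panobinostat and 3.79 and 3.58 with both drugs, against 8.89 and 8.71 with DMSO. The order was the same on every array, highest in DMSO and lowest with both drugs, and no 2 groups overlapped. Against DMSO the log2 differences were -3.79, -4.24 and -5.12 (SE 0.16 each) for OTX015, panobinostat and both drugs, which left 7.25%, 5.28% and 2.88% of the DMSO level. The combination lay under panobinostat, the lower single drug here, by 0.87.

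ITIH6 belongs to the heavy chains of inter-alpha-trypsin inhibitor, secreted proteins whose best-known members bind hyaluronan in the extracellular matrix. Its level was 3.45 and 3.46 with OTX015, 3.21 and 2.91 with panobinostat and 2.92 and 2.26 with both drugs, against 7.21 and 7.47 with DMSO. The panobinostat and combination arrays overlapped narrowly, and the combination mean was under the background level. The log2 difference from DMSO was -3.89 ± 0.22 with OTX015 and -4.28 ± 0.22 with panobinostat, and ITIH6 was at least 19.9-fold lower with both drugs than with DMSO.

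At the plasma membrane and in lysosomes, CA14 is a carbonic anhydrase that interconverts carbon dioxide and bicarbonate at the cell surface, and ATP10B is a P4-type ATPase, a flippase that moves lipids such as glucosylceramide between the leaflets of a membrane. CA14 stood at 3.13 and 3.82 with OTX015, 2.85 and 2.70 with panobinostat and 2.96 and 2.46 with both drugs, against 7.34 and 7.71 with DMSO. The OTX015 arrays of CA14 were the most unequal pair among the 9 genes in that group, and the panobinostat and combination arrays overlapped under the background level. ATP10B stood at 3.59 and 3.65 with OTX015, 2.75 and 2.55 with panobinostat and 2.62 and 2.09 with both drugs, against 7.75 and 7.63 with DMSO. OTX015 lowered ATP10B by 4.07 ± 0.18 and CA14 by 4.05 ± 0.26, ranks 2 and 3 of all genes, and for ATP10B too the panobinostat and combination arrays overlapped. Panobinostat and the combination each left ATP10B at least 25.3-fold and CA14 at least 22.6-fold below DMSO.

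NAV3, a neuron navigator that binds the growing ends of microtubules, had 3.88 and 3.60 with OTX015, 3.71 and 3.48 with panobinostat and 3.52 and 3.25 with both drugs, against 7.46 and 7.29 with DMSO. The arrays of the 2 single drugs overlapped, as did those of panobinostat and the combination. Its log2 differences from DMSO were -3.64, -3.78 and -3.99 (SE 0.16 each) with OTX015, panobinostat and both drugs, a narrow span of measured signal. The means of all 3 drug groups lay under 3.84, near background, so a further fall of NAV3 RNA in any of them could have been missed. ZHX2, a zinc-finger and homeodomain repressor of transcription, had 2.17 and 2.55 with OTX015, 2.42 and 2.37 with panobinostat and 2.65 and 2.46 with both drugs, against 6.02 and 5.59 with DMSO. All 6 drug arrays of ZHX2 were under the background level, so it was at least 6.85-fold lower in each drug group and its order among the drugs cannot be read.

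TECRL resembles the enoyl-CoA reductase of fatty acid elongation, lies in the endoplasmic reticulum and is known from inherited arrhythmia of the heart. It had 7.80 and 8.03 with OTX015, 4.14 and 3.82 with panobinostat and 4.11 and 3.87 with both drugs, against 9.78 and 9.56 with DMSO. OTX015 left 29.7% of the DMSO signal (log2 difference -1.75 ± 0.17, rank 127), whereas panobinostat left 1.94% and both drugs 1.95%. The log2 differences of -5.69 ± 0.17 with panobinostat and -5.68 ± 0.17 with both drugs were the deepest falls of all genes in each comparison, and the panobinostat and combination arrays overlapped.

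RHOJ is a small GTPase best known for endothelial cell motility. It had 5.89 and 5.88 with OTX015, 2.75 and 3.19 with panobinostat and 2.68 and 2.53 with both drugs, against 8.13 and 8.13 with DMSO. The OTX015 arrays sat between the other groups, at 21.1% of the DMSO signal (log2 difference -2.25 ± 0.16, rank 52). With panobinostat and with both drugs the mean was under the background level, at least 34.3-fold below DMSO, at rank 2 in each comparison.

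**Figure D3:**
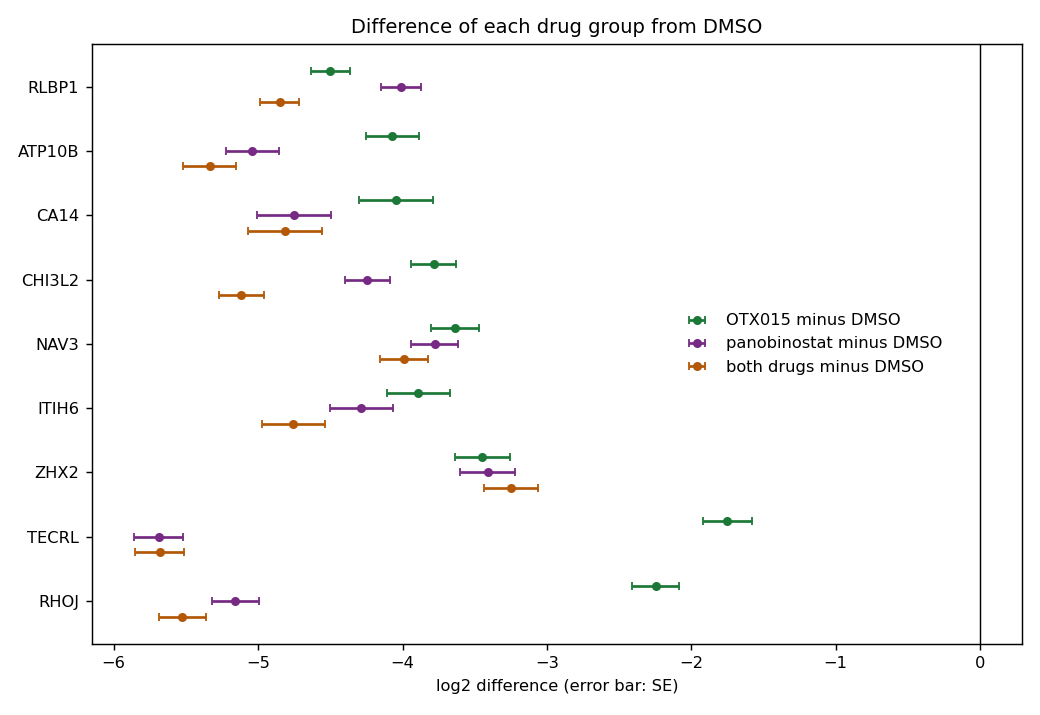
Log2 difference from DMSO (horizontal axis) of each of the 9 genes (rows) for OTX015 (green), panobinostat (purple) and both drugs (orange), with the standard error of the fit as bars (n = 2 arrays a group). TECRL and RHOJ fell by 1.75 and 2.25 with OTX015 and by over 5 with panobinostat; the other 7 lie between -3.25 and -5.33 in all 3 groups. All are differences in measured signal, including those that end under the background.

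For context, limma, with Benjamini-Hochberg adjustment over all 22458 genes and a threshold of 0.05, called all 9 genes lower in each of the 3 comparisons with DMSO, against 8.49% of all genes lower with OTX015, 17.9% with panobinostat and 18.4% with both drugs; since these comparisons chose the genes, nothing is read from that count. The median difference of the 9 genes was -3.79, -4.28 and -4.85 with OTX015, panobinostat and both drugs, while that of all genes was -0.02, -0.05 and 0.01. A fall by over 3 on the log2 scale was seen in 14 genes with OTX015, 109 with panobinostat and 184 with both drugs. Only 11 genes fell that far in all 3 groups, 7 of them among the 9. The other 4, picked after their values were seen, were SCRG1, RFTN2, CDH19 and the pseudogene FRG2DP. SCRG1 fell by 3.13, 4.01 and 4.59, RFTN2 by 3.24, 4.44 and 5.00, CDH19, a cadherin of glial precursors, by 3.35, 3.98 and 4.36, and FRG2DP by 3.92, 4.90 and 4.64 with OTX015, panobinostat and both drugs. Each of the 4 averaged under the background in at least 1 drug group, where the fall could be measured only down to that level.

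Differences between the drug groups were not named by the rule, and they were tested in the same fit, although they share their arrays with the comparisons that chose the genes. Adding panobinostat to OTX015 lowered 5 of the 9 genes further and raised 0, against 14.7% lower and 15.3% higher among all genes. TECRL changed most (log2 difference of both drugs minus OTX015 -3.93 ± 0.17, limma adjusted p = 2.54e-06), and RHOJ, whose mean with both drugs was under the background, was at least 7.24-fold lower (limma adjusted p = 3.89e-06). CHI3L2 (-1.33 ± 0.16, limma adjusted p = 0.000300) also passed, as did ATP10B, at least 1.503-fold lower (limma adjusted p = 0.000980). ITIH6, at least 1.34-fold lower, passed with both duplicates in place (limma adjusted p = 0.0174) but not without either OTX015 array or the second combination array, where the limma adjusted p went up to 0.0918. CA14 (-0.77, 95% interval -1.357 to -0.18), RLBP1 (-0.35, -0.66 to -0.04), NAV3 (-0.35, -0.73 to 0.02) and ZHX2 (0.20, -0.23 to 0.63) did not pass, with limma adjusted p of 0.0538, 0.0888, 0.155 and 0.505. CA14 was under the background with both drugs, so its interval does not limit how far it fell, and ZHX2 was under the background in both groups. Some of these results depended on the processing. CA14 passed under centring, quantile normalization, a filter on the lowest 25% of genes and robust moderation with an intensity trend. RLBP1 passed under centring and quantile normalization, and NAV3 under quantile normalization.

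Adding OTX015 to panobinostat lowered 2 of the 9 genes and raised 0, against 6.1% lower and 4.33% higher among all genes. These were RLBP1 (-0.84 ± 0.14, limma adjusted p = 0.00857), which fell to 55.8% of its panobinostat level, and CHI3L2 (-0.87 ± 0.16, adjusted p = 0.0123), which fell to 54.5%. Both calls were lost without either panobinostat array or without the second combination array, with limma adjusted p of up to 0.0578 for RLBP1 and 0.0740 for CHI3L2. ITIH6 (-0.47, 95% interval -0.98 to 0.03) and NAV3 (-0.21, -0.59 to 0.16) did not pass, and the mean of ITIH6 with both drugs was under the background. TECRL was at 0.01 (interval -0.38 to 0.40), which bounds its measured signal only. Its means, 3.98 with panobinostat and 3.99 with both drugs, were above the background of 3.03. They lay near 3.84, the 99th percentile of the olfactory receptor genes, so a further fall of its RNA could have been missed. RHOJ, ATP10B, CA14 and ZHX2 were under the background in both groups, where a further fall could not have been seen.

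Set directly against each other, the single drugs differed for 4 of the 9 genes, 1 lower and 3 higher with OTX015, against 16% lower and 13.3% higher among all genes. TECRL was higher with OTX015 than with panobinostat by 3.94 ± 0.17 (15.3-fold, limma adjusted p = 4.71e-06). RHOJ was at least 7.24-fold higher (limma adjusted p = 1.03e-05) and ATP10B at least 1.503-fold higher (limma adjusted p = 0.00423), both being under the background with panobinostat. RLBP1 was lower with OTX015 by 0.49 ± 0.14 (limma adjusted p = 0.0260), a call that was lost under centring, under quantile normalization and without any 1 of the 4 arrays compared, with adjusted p up to 0.137. CA14 (0.71, 95% interval 0.12 to 1.29), CHI3L2 (0.46, 0.10 to 0.81), ITIH6 (0.39, -0.11 to 0.90), NAV3 (0.14, -0.24 to 0.51) and ZHX2 (-0.04, -0.47 to 0.40) did not pass. CA14 was under the background with panobinostat, so its interval does not limit the difference, and ZHX2 was under it in both groups. CA14 passed under centring. CHI3L2 passed under centring, quantile normalization, a filter on the lowest 25% of genes, robust moderation with an intensity trend, and array weights.

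**Figure D4:**
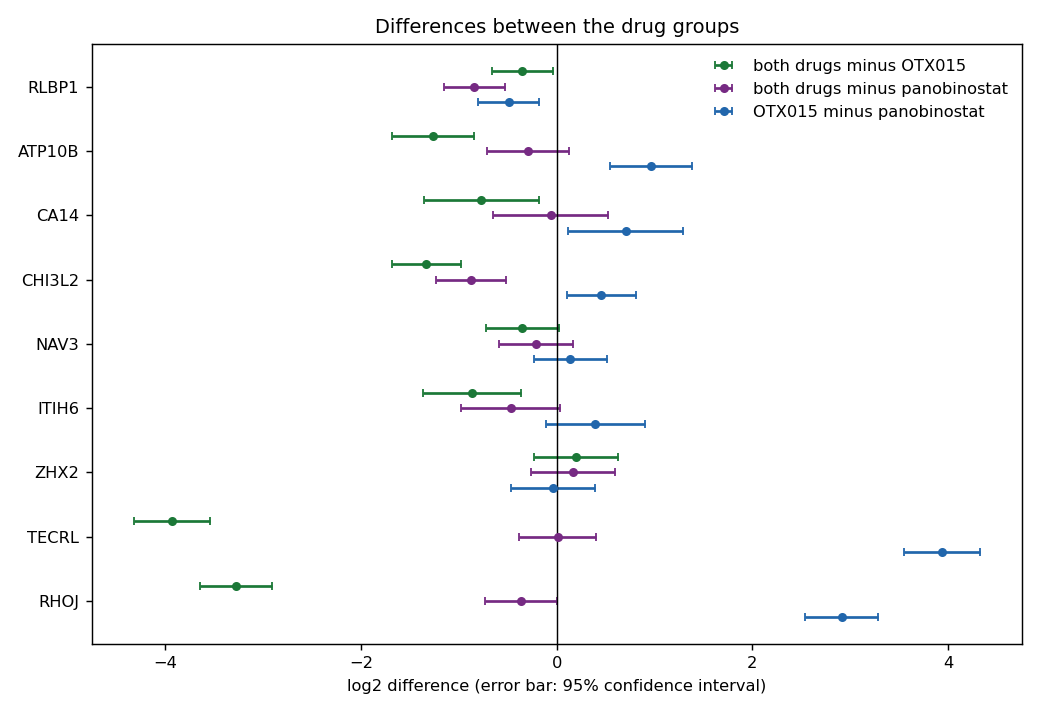
Log2 difference between drug groups (horizontal axis) for each of the 9 genes (rows), with 95% confidence intervals from the limma fit (n = 2 arrays a group): both drugs minus OTX015 (green), both drugs minus panobinostat (purple), OTX015 minus panobinostat (blue). TECRL and RHOJ lie apart, near -3.93 and -3.28 for both drugs minus OTX015 and at 3.94 and 2.91 for OTX015 minus panobinostat; RHOJ, ATP10B and CA14 with panobinostat or both drugs, ITIH6 with both drugs and ZHX2 in every drug group were under the background, where the plotted differences and intervals are of measured signal only.

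If the log2 changes of the 2 drugs added up, the combination would have left the 9 genes at -1.42 (ATP10B) to 2.23 (TECRL), all under the background level of 3.03. The measured combination levels were 2.35 for ATP10B and 3.99 for TECRL, and the interaction (both drugs minus OTX015 minus panobinostat plus DMSO) was 1.76 for TECRL to 3.98 for CA14. An array cannot report a level that far under its background, so the interaction of these genes cannot be read and is given with no test. For reference, limma called an interaction in 13.7% of all genes.

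The relatives of 8 of the 9 genes, all but RHOJ, were described from 8 lists of family or pathway members, 99 genes of which 93 were measured. With OTX015, limma called 11 of the 93 higher and 13 lower, against 7.97% of all genes higher and the 8.49% lower given above. With panobinostat it called 26 higher and 15 lower (19.4% of all genes were higher), and with both drugs 24 higher and 14 lower (19.2% of all genes were higher). The list medians lay between -0.37 (neuron navigators with panobinostat) and 0.28 (the list of TECRL with panobinostat).

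**Figure D5:**
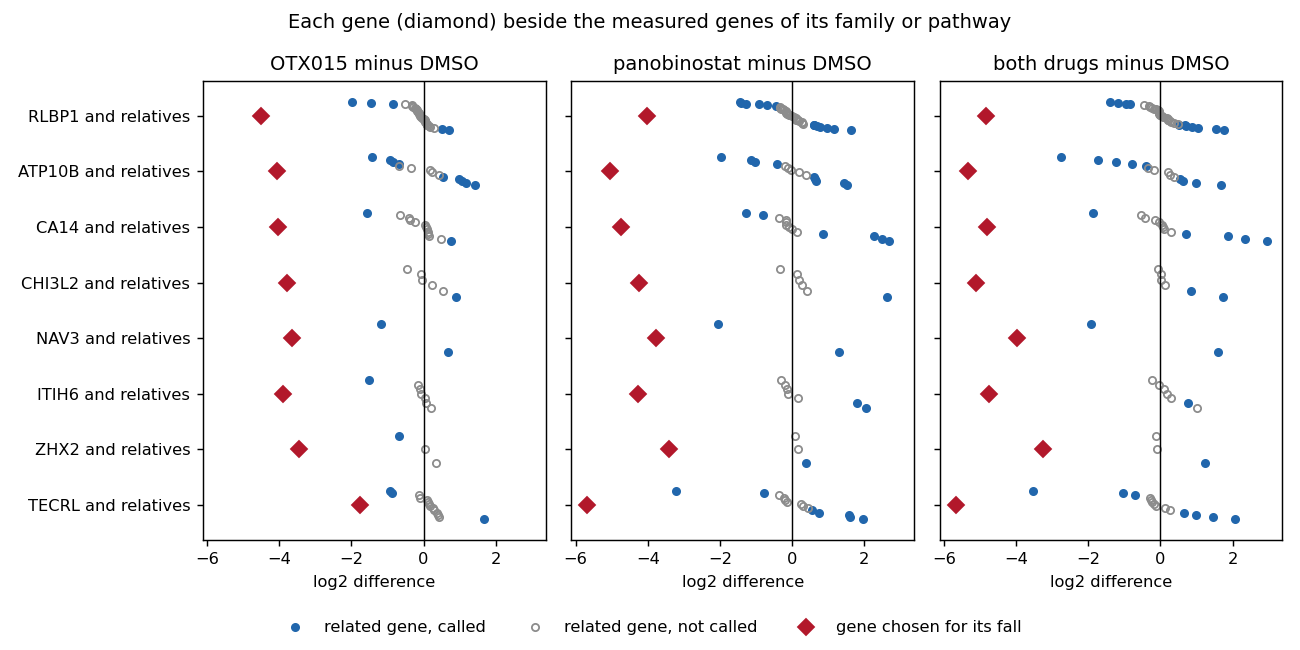
Log2 difference from DMSO (horizontal axis) of each of 8 genes (red diamonds) and of the measured genes of its family or pathway (blue filled points, called by limma at an adjusted p under 0.05; open points, not called), in 1 panel per drug group. The diamonds mark genes chosen for their falls in these comparisons, so their place left of the relatives was fixed by that choice; relatives under the background in DMSO had no room to fall.

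Of 34 measured genes for retinoid handling, listed with RLBP1, 2 rose and 3 fell with OTX015, 7 rose and 6 fell with panobinostat and 7 rose and 4 fell with both drugs. Each count of falls includes RPE65, which was under the background in every group, so its movement cannot be read. RARG, a retinoic acid receptor, fell by 1.98 ± 0.19 with OTX015 (limma adjusted p = 0.000454). CYP26B1, which degrades retinoic acid, fell by 1.44 ± 0.18 with panobinostat, and RXRA, the partner receptor, fell by 1.39 ± 0.14 with both drugs. Among retinol dehydrogenases, RDH10 rose by 0.72 with OTX015, RDH12 rose at least 2.81-fold with panobinostat and RDH8 rose by 1.77 with both drugs. The RDH10 call was lost in a fit of the 2 groups alone and when either OTX015 array or the second DMSO array was left out, with limma adjusted p up to 0.126.

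Among 14 flippases and subunits listed with ATP10B, limma called 5 higher and 4 lower with OTX015, 5 and 4 with panobinostat, and 4 and 5 with both drugs. ATP9A, a flippase relative of endosomes, fell in all 3 groups, by 1.43, 1.98 and 2.76 (SE 0.18 each) with OTX015, panobinostat and both drugs. ATP10D, of the same subfamily as ATP10B, was up by 1.42 ± 0.13 with OTX015, and ATP8B3 was up by 1.53 ± 0.24 with panobinostat and 1.68 ± 0.24 with both drugs. Of 13 carbonic anhydrases beside CA14, 1 rose and 1 fell with OTX015, 4 and 2 with panobinostat, and 4 and 1 with both drugs. CA11, a relative without enzyme activity, fell by 1.56, 1.28 and 1.87 (SE 0.20 each) in the order OTX015, panobinostat, both drugs. The mitochondrial CA5B rose by 2.69 ± 0.16 with panobinostat and the cytosolic CA2 rose at least 7.02-fold with both drugs (limma adjusted p = 4.72e-06), so carbonic anhydrases moved both ways. The cytosolic CA13 rose by 0.77 with OTX015, a call that was lost without either OTX015 array or the second DMSO array (limma adjusted p up to 0.111).

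Of the 6 relatives of CHI3L2, 1 rose with OTX015, 1 with panobinostat and 2 with both drugs, and 0 fell. CTBS, a lysosomal chitobiase, rose by 0.89, 2.63 and 1.73 (SE 0.17 each) with OTX015, panobinostat and both drugs, and its OTX015 call was lost without the first OTX015 or the second DMSO array (limma adjusted p up to 0.0660). The other neuron navigators split: NAV1 fell by 1.18, 2.04 and 1.94 (SE 0.18 each), and NAV2 rose by 0.67, 1.30 and 1.60 (SE 0.16 each), in the same order of groups. The NAV2 call with OTX015 was lost without either DMSO array, without the first OTX015 array and in a fit of the 2 groups alone (limma adjusted p up to 0.124).

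Of the 7 relatives and partners of ITIH6, 0 rose and 1 fell with OTX015, 2 and 0 with panobinostat, and 1 and 0 with both drugs. TNFAIP6, which transfers heavy chains onto hyaluronan, fell by 1.52 ± 0.34 with OTX015, ITIH4 rose at least 2.64-fold with panobinostat and ITIH5 rose by 0.75 ± 0.20 with both drugs. The TNFAIP6 call was lost without either OTX015 array or the first DMSO array (limma adjusted p up to 0.108), and that of ITIH5 without the second DMSO or the second combination array (up to 0.0907). Of the 3 relatives of ZHX2, HOMEZ fell by 0.68 ± 0.14 with OTX015, and ZHX3 rose by 0.38 ± 0.12 with panobinostat and by 1.24 ± 0.12 with both drugs. The HOMEZ call was lost without either OTX015 array or the first DMSO array (limma adjusted p up to 0.0694). The ZHX3 call with panobinostat was lost under centring, in a fit of the 2 groups alone and without any 1 of the 4 arrays compared (limma adjusted p up to 0.121).

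Of 14 measured genes listed with TECRL, 1 rose and 2 fell with OTX015, 5 and 2 with panobinostat, and 4 and 3 with both drugs. ELOVL6, an elongase of saturated fatty acids, fell by 0.92 ± 0.13 with OTX015, 3.21 ± 0.13 with panobinostat and 3.52 ± 0.13 with both drugs. Its levels were 7.88 and 7.81 with OTX015, 5.58 and 5.55 with panobinostat and 5.29 and 5.19 with both drugs, against 8.86 and 8.67 with DMSO, so ELOVL6 and TECRL were both much lower with panobinostat than with OTX015. ELOVL4, an elongase of very long chains, rose by 1.67, 1.96 and 2.08 (SE 0.14 each) in the 3 groups.

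Genes next to the 9 on their chromosomes were looked up after the values had been seen, as the nearest measured protein-coding gene on each side in the RefSeq order. Of these 18 neighbours, limma called 4 lower and 1 higher with OTX015, 8 and 3 with panobinostat, and 8 and 4 with both drugs. Among all genes 8.49% were lower and 7.97% higher with OTX015, 17.9% and 19.4% with panobinostat, and 18.4% and 19.2% with both drugs. Of the 5 OTX015 calls, those of FANCI, ANP32E and SLU7 were lost under 9, 3 and 5 of 16 alternatives, with limma adjusted p up to 0.219, 0.121 and 0.150. HAS2, a hyaluronan synthase beside ZHX2, fell most, by 2.59 ± 0.17 with OTX015 and 3.91 ± 0.17 with panobinostat, and was at least 16.3-fold lower with both drugs, where its mean was under the background (limma adjusted p = 0.000124, 2.30e-06 and 8.31e-07). ADGRL3, an adhesion receptor beside TECRL, fell by 2.50 with panobinostat and 3.21 with both drugs and was at 0.35 with OTX015 (limma adjusted p = 0.114), and FANCI, a DNA repair gene beside RLBP1, fell by 2.66 with panobinostat and 3.30 with both drugs. EPHA5 on the other side of TECRL, and DENND2D and CHIA on the 2 sides of CHI3L2, were under the background in every group, so a fall could not have been seen. The same held for KCNH5 and GPHB5 on the 2 sides of RHOJ. GABRB2 beside ATP10B and SYT1 beside NAV3 were under the background in DMSO and likewise had no room to fall. The counts of higher neighbours with panobinostat and with both drugs include KCNH5, whose measured rise lay within the background and cannot be read. Beside ATP10B, SLU7 rose by 1.26 with panobinostat and 1.30 with both drugs.

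The genes whose levels followed each of the 9 most closely were found by Pearson r over the 8 arrays, among 1299 genes whose group means spanned at least 2 on the log2 scale. With 4 groups the r values rest on few independent points and are a description. CMTM5, a membrane protein of myelinating glia, was nearest to both RLBP1 (r = 0.996) and NAV3 (r = 0.996). CAPN3, a calpain protease, was among the 2 nearest of ATP10B (0.997), CHI3L2 (0.996) and ITIH6 (0.993). CHI3L2 lay nearest to DUSP9, a phosphatase of MAP kinases (0.998), CA14 to ZNF648 (0.997) and CDH19 (0.994), and ZHX2 to KIF26B (0.990) and IFI16 (0.989). NR4A1 (0.994 with RLBP1), NCKAP5 (0.996 with ATP10B), PALMD (0.995 with NAV3) and SLC18B1 (0.991 with ITIH6) completed these pairs.

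TECRL and RHOJ, the pair that OTX015 lowered only in part, shared none of their 2 nearest genes with the other 7 or with each other. CA14 and ZHX2 shared none of theirs either, so this does not set the pair apart. TECRL lay nearest to the mitotic kinase NEK6 (r = 0.999) and to PLK4 (0.999), the kinase of centriole duplication. NEK6 fell by 0.71 with OTX015, 2.45 with panobinostat and 2.44 with both drugs, and PLK4 fell by 0.77, 2.61 and 2.59. RHOJ lay nearest to TLCD3A (0.998) and RNF144A (0.998), which fell by 1.20 and 1.07 with OTX015 and by 2.48 and 2.37 with panobinostat. None of these 4 genes fell as far as TECRL or RHOJ.

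Markers of the cells in which some of these genes are best known were set beside them. For RHOJ, 4 of 11 endothelial markers were above background in every group and PECAM1, CDH5, VWF, KDR, TEK, TIE1 and EMCN were not, with a summed linear signal of 89.0 to 94.97 with OTX015, 88.1 to 92.2 with panobinostat and 91.9 to 96.4 with both drugs, against 82.7 to 85.6 with DMSO. Of the markers above background, ESAM, a junction protein, rose by 0.62, 0.87 and 0.78 with OTX015, panobinostat and both drugs, whereas the transcription factor ERG fell by 0.39 with panobinostat and 0.39 with both drugs (limma adjusted p = 0.0377 and 0.0365) and was at -0.01 with OTX015. For TECRL, 0, 1 and 1 of 6 cardiomyocyte markers were above background with OTX015, panobinostat and both drugs, against 1 with DMSO, and the list summed to 32.1 with OTX015, 36.5 to 38.7 with panobinostat and 37.1 to 37.9 with both drugs, against 45.9 to 53.9 with DMSO. The marker differed: TNNI3 with panobinostat, MYH7 with both drugs and RYR2 with DMSO. RYR2 was under the background in each drug group, at least 2.73-fold lower than with DMSO (limma adjusted p = 0.000320, 4.77e-05 and 2.67e-05 with OTX015, panobinostat and both drugs). TNNI3 rose at least 1.16-fold with panobinostat (limma adjusted p = 0.00386), and MYH7 was called in none of the 3 comparisons. For RLBP1, 5, 5 and 4 of 7 retinal pigment epithelium markers were above background with OTX015, panobinostat and both drugs, against 5 with DMSO, and RPE65 was under it in every group. The sum of that list was 78.8 to 95.8 with OTX015, 267 to 268 with panobinostat and 167 to 194 with both drugs, against 315 to 321 with DMSO. RGR, an opsin of the visual cycle, fell by 1.93, 2.40 and 2.29 with OTX015, panobinostat and both drugs. TYR, tyrosinase, fell by 1.01 with OTX015 and was at least 2.66-fold lower with panobinostat and with both drugs, where it was under the background, whereas BEST1, a chloride channel, fell by 3.26 with OTX015 and was at 0.12 with panobinostat. PMEL, a protein of pigment granules, rose by 1.03 with panobinostat (limma adjusted p = 0.00396), LRAT, which esterifies retinol, rose at least 1.19-fold with panobinostat (limma adjusted p = 0.0249), and TTR, a retinol carrier partner, was called in none of the 3 comparisons. The microglia and macrophage list, in which 2 of 10 markers with OTX015, 3 with panobinostat and 3 with both drugs were above background, against 2 with DMSO, summed to 132 with OTX015, 739 to 878 with panobinostat and 1364 to 1595 with both drugs, against 82.9 to 107 with DMSO, with CD68, a lysosomal protein, up by 4.91 with both drugs. CSF1R, a receptor, rose by 2.34 with panobinostat and 1.90 with both drugs (limma adjusted p = 0.000817 and 0.00253). TMEM119 rose at least 1.21-fold and 1.31-fold in the same 2 groups. AIF1, ITGAM, PTPRC, CX3CR1, P2RY12, TYROBP and CD14 were under the background in every group. Pericyte and fibroblast markers summed to 135 to 145 with OTX015, 142 to 167 with panobinostat and 117 to 146 with both drugs, against 299 to 317 with DMSO. In that list CSPG4, a proteoglycan of pericytes and glial precursors, fell by 1.63, 3.11 and 3.93 with OTX015, panobinostat and both drugs, while COL1A1, a fibroblast collagen, rose by 1.61 with panobinostat and 1.39 with both drugs (limma adjusted p = 0.000276 and 0.000577). Lymphocyte markers summed to 67.0 to 81.0 over the drug arrays, against 69.0 to 78.8 with DMSO. The part of these shifts in the falls of the 9 genes was not tested.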

How the data were processed

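Total RNA of the 8 cultures was labelled with biotin and read on single-colour expression arrays, per the labels' protocols. The deposited values are on a log2 scale and, per the submitters' processing notes, the authors used affy 1.36.1 and R 2.15.1 to make them by RMA. The sources used here do not give the array model, the probe set definition or the genome build. RMA makes the arrays alike in distribution, so a change in total RNA per cell would not show, and it compresses signals near background.

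The table held 23786 probe sets, of which 22458 had exactly 1 gene symbol in the platform annotation and entered the fit, 1 per gene. Columns were assigned to samples by title, with 0 left over. All 8 arrays entered 1 limma fit (limma 3.58.1, R 4.3.3) of 4 group means without covariates, with 4 residual and 4.41 prior degrees of freedom. Tests were two-sided, adjusted by Benjamini-Hochberg over all 22458 genes, and called at 0.05 with no filter on low values. The test was tested on simulated data. Tables and figures were made with pandas 2.3.3 and matplotlib 3.10.9 in Python 3.11.15.

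The 9 genes, the family and marker lists, the background rule and the tests were chosen with earlier results of these data known. The family list of RHOJ is not reported here. The text names all 9 genes, for each of the other family lists and comparison with DMSO the called gene with the largest rise and the one with the largest fall, and for each of the 9 the 2 genes of highest Pearson r. Genes outside this rule are marked as chosen after their values were seen or are neighbours or markers. Windows at gene starts came from RefSeq (GRCh38.p14) and were matched by gene identifier for 8 of 9 genes. Alternatives were each array left out in turn, a replicate block, array weights, robust moderation with a trend on intensity, a fit of the compared groups alone, all probe sets, a filter on the lowest 25% of genes, quantile normalization, centring, and 4 other background levels.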

Additional observations from a re-analysis of the deposited data

Results flagged for a closer look

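ZHX2 was singled out because its measured signal differed in opposite directions: by 0.16 on the log2 scale for both drugs minus panobinostat (95% interval -0.27 to 0.59), while OTX015 left it at least 6.85-fold lower than DMSO. Both groups of the first comparison were under the background level, so no movement there was shown, and the difference between these effects was not tested.

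Among relatives of the 9 genes, 11 of those named had an interaction that passed limma's test (both drugs minus OTX015 minus panobinostat plus DMSO, adjusted over all genes). It was positive, meaning a combination above the sum of the single changes, for RARG (2.44 ± 0.26, limma adjusted p = 0.00166), CYP26B1 (1.74), NAV1 (1.28), RDH8 (0.88) and ZHX3 (0.82). RARG, CYP26B1 and NAV1 fell with each drug alone, and with both drugs by less than the sum of these falls. For RARG and CYP26B1 that sum would have ended under the background level, so the size of their interaction cannot be read. The mean fall of RARG was also smaller with both drugs than with either drug alone. For CYP26B1 the means with OTX015 and panobinostat, 3.05 and 3.08, lay close to the background of 3.03. The combination mean was higher than these by only 0.30 and 0.28, and the panobinostat and combination arrays overlapped. RARG fell by 1.98, 1.41 and 0.95 (SE 0.19 each) with OTX015, panobinostat and both drugs, and CYP26B1 by 1.47, 1.44 and 1.17 (SE 0.18 each). The interaction was negative for CTBS (-1.79 ± 0.24, limma adjusted p = 0.00301), ELOVL4 (-1.55), ATP10D (-1.54), CA5B (-0.95), CA13 (-0.92) and RDH12 (-0.90). CTBS, ELOVL4, CA13 and ATP10D were higher with each drug alone and rose by less than the sum with both. ATP10D was up by 1.42 with OTX015, 0.67 with panobinostat and 0.55 with both drugs, and CTBS by 0.89, 2.63 and 1.73.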

How the results depend on the processing

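The falls of the 9 genes against DMSO kept their direction under all 16 alternatives, from -1.63 (TECRL with OTX015) to -5.85 (TECRL with panobinostat). Between drug groups, 5 genes were lower with both drugs than with OTX015, and 8 under quantile normalization. The count lower with OTX015 than with panobinostat was 1, and 0 under centring and under quantile normalization, and 3 were higher, with 5 under centring, where ZHX2 turned to 0.0931. Genes called between both drugs and panobinostat numbered 2342, and 1477 in a fit of those groups alone.

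Leaving out 1 array at a time gave 1885 to 3415 called genes for OTX015 against DMSO, 566 to 2251 for both drugs against panobinostat (566 without the first panobinostat array) and 1631 to 2546 for the interaction. For both drugs against panobinostat, 0 to 2 of the 9 were lower, CA14 lay at -0.31 to 0.19 and TECRL at -0.15 to 0.17. For OTX015 against panobinostat, 0 to 1 were lower, 3 to 5 higher, and ZHX2 lay at -0.22 to 0.15.

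The replicate number used as a block moved the calls for OTX015 against DMSO to 3752 and left 5, 2, 1 and 3 of the 9 called between drug groups, in the order of the report. The labels give the numbers no shared batch, and deviations of arrays with the same number correlated at 0.05 to 0.12, so the pairing is not taken as real. The background level was 2.54 at the 90th percentile, 3.84 at the 99th and 4.67 from keratin-associated protein genes, against 2.98 from DMSO arrays alone, which left the counts under it as reported. Under the levels at the 90th percentile, at the 99th and from keratin-associated protein genes lay 1, 6 and 6 of the 9 with OTX015, 1, 6 and 9 with panobinostat, and 1, 8 and 9 with both drugs. The cause of these shifts was not tested. Signal near background limits every value under about 3.03.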
